A study of Mus musculus with 36 samples.

Results

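Hearts without Klf15 were compared between 4 am and 4 pm, over all genes measured, by RNA sequencing of the heart apex. These hearts, called cK15, carry the genotype label KLF15 KO. Klf15 encodes a Kruppel-like zinc-finger transcription factor. The comparison used 6 of the 36 libraries of the study: cK15 replicates 1, 3 and 4 at 4 am and cK15 replicates 1, 3 and 4 at 4 pm. The other libraries were 12 more from cK15 hearts and 18 from hearts of control mice, with 3 libraries for each genotype at each of 6 times of day. All mice were C57BL/6J males, 11 to 12 weeks old, under 12 h of light and 12 h of darkness. Control mice had an alpha-MHC cre transgene, whose promoter is active in heart muscle cells. The labels do not say whether cK15 mice carry the same transgene or in which cells Klf15 is lost. No source used here gives the clock time at which lights came on.

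Mammalian cells keep daily time with a loop of transcription factors. BMAL1 (gene Arntl) pairs with CLOCK or NPAS2 and activates genes through a DNA motif called the E-box, among them the Per and Cry genes, whose proteins then block the pair. REV-ERB proteins (Nr1d1, Nr1d2) repress and ROR proteins activate Arntl through a shared motif, the RORE. The PAR bZIP factors DBP, TEF and HLF are outputs of the loop that act through another motif, the D-box. In the heart this clock sets daily rhythms of metabolic, contractile and electrical genes, and KLF15 is known both as a clock output and as a regulator of lipid and amino acid use.

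Values are FPKM, fragments scaled to gene length and library total, and the depth of the libraries is unknown. Klf15 was listed at 0 in all 3 cK15 libraries of 4 am and lay between 0 and 0.326 FPKM in those of 4 pm, against 0.406 to 1.66 and 0.726 to 1.64 FPKM in control hearts at the same times. Replicate 1 stood apart at both times: the 10 genes of highest FPKM made up 16.8% to 17.2% of its total, against 23.1% to 25% in replicates 3 and 4. Myl2, the regulatory light chain of ventricular myosin, was at 32831 to 34929 FPKM in replicate 1 and at 52376 to 71845 FPKM in the others. Because replicate 1 is present at both times, this contrast falls within both groups, and results that rest on it are given below with and without it. Genes at 1 FPKM or more numbered 10365 to 10593 per library.

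Of 10599 genes tested with limma, 29 differed between 4 am and 4 pm at an adjusted p under 0.05 (0.274%), 11 of them higher at 4 am (0.104%) and 18 lower (0.17%). The clock gene Arntl led the genes higher at 4 am. Next came Col5a3, Spon2, Msantd1 and Rcan1, none of them on the lists of clock genes used below. The clock genes and outputs Dbp, Sphk2, Per3, Nr1d2 and Gm129 led the genes lower at 4 am. The log2 fold changes of the 29 genes ran from -2.85 to 3.48, and 20 of them were at least 1 in size. Over all tested genes the median was 0.01. In bulk tissue, fewer cells of a type and less RNA per cell cannot be told apart. Each of the 29 genes had all 3 libraries of one time above all 3 of the other. Of all tested genes 885 did so (8.35%), 465 higher at 4 am (4.39%) and 420 lower (3.96%). That share is to be set beside each gene below whose groups did not overlap. With the replicate number as a block, 53 genes passed (0.5%), 24 higher and 29 lower at 4 am; they included all 29. Leaving out 4 am replicate 3 reduced the count to 19, and a fit of the 6 compared libraries alone gave 10.

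**Figure D1:**
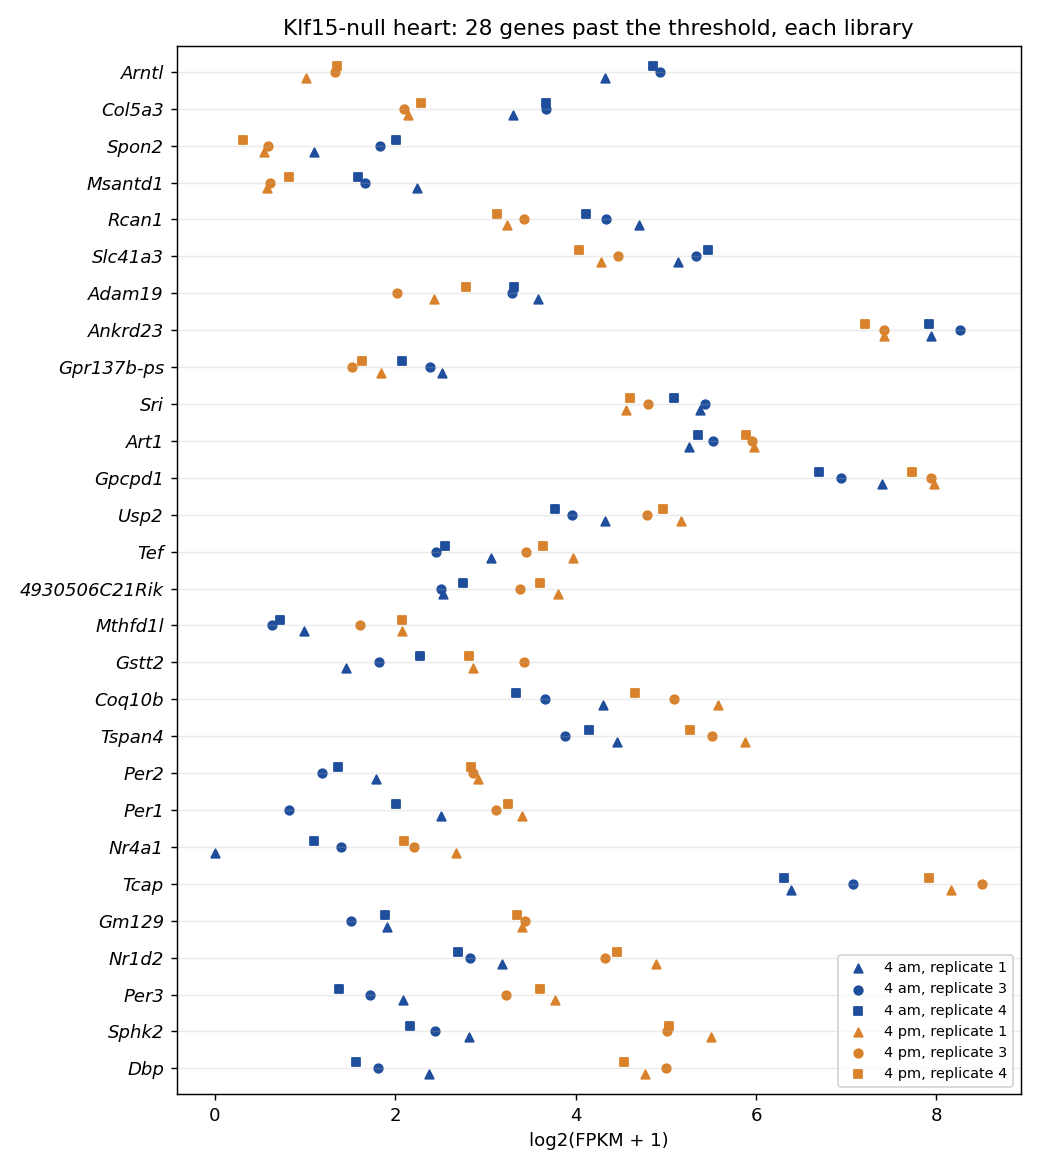
Expression of 28 of the 29 genes past the threshold in each of the 6 cK15 libraries, as log2(FPKM + 1) on the horizontal axis. Blue marks are 4 am, orange marks are 4 pm, and the mark's shape gives the replicate; in every row the blue and orange marks do not overlap.

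A feature that the test did not use is the DNA just before the start of these genes. RefSeq promoter windows (build GRCm38.p6, up to 250 bases before the start) were matched for 22 of the 29 genes and searched on both strands for the E-box CACGTG, for the D-box TTATGTAA or TTACGTAA, and for the RORE core TAGGTCA. None of these motifs contains another. An E-box stood in the window of 8 of the 22 genes (36.4%), namely Adam19, Coq10b, Gm129, Per1, Rcan1, Slc41a3, Tef and Tspan4, against 6.86% of 27025 genes with a window. A D-box stood in 2 (9.09%), Coq10b and Per3, against 1.10% of genes. No window held the RORE core, which 2.55% of genes had. Of the 8 genes with an E-box, Adam19, Rcan1 and Slc41a3 were higher at 4 am and the others lower. None of the motifs stood in the windows of Arntl, Dbp, Sphk2 and Nr1d2. The search took exact letters within 250 bases only. It therefore cannot show that these genes lack such sites, which may lie outside the window or differ in a letter. The 27025 genes were not limited to those past the filter on expression. These shares are a description of letters in a window and were given no test. The windows below belong to 4 genes that were lower at 4 am and show single, repeated and mixed motifs; motif letters are in capitals, and each sequence reads 5′ to 3′ on the gene's own strand. Gm129, the symbol in the deposited table for the repressor gene that RefSeq calls Ciart, has 3 E-boxes starting 116, 58 and 44 bases before its start (chr3:95882258-95882478, minus strand), and 20 of 32851 windows had as many. Per3 has 2 D-boxes at 205 and 158 bases (chr4:151044708-151044915, minus strand), and 7 of 32851 windows had at least as many. All distances are counted back from the annotated start at which the full window ends. The Gm129 and Per3 sequences shown end 30 and 43 bases before that start, since bases within the gene's annotated span were left out. Tef has 2 RefSeq windows with an E-box each; the one shown has it at 127 bases (chr15:81802423-81802672, plus strand), and in the other, of a later start, it is at 138 bases. Coq10b has a D-box at 162 bases and an E-box at 78 bases (chr1:55052520-55052769, plus strand).
Gm129: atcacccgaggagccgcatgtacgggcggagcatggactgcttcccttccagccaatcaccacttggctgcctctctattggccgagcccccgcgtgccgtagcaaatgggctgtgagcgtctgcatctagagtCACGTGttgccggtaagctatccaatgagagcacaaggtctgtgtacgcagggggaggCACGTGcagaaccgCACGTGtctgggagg
Per3: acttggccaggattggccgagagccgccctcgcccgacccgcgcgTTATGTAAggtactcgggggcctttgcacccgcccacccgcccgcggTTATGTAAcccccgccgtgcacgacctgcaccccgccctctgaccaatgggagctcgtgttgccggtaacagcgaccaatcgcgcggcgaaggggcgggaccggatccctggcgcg
Tef: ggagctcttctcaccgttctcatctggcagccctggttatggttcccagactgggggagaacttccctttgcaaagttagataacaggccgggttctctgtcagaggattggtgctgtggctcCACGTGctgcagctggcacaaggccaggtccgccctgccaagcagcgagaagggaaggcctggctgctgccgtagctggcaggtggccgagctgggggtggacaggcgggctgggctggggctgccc
Coq10b: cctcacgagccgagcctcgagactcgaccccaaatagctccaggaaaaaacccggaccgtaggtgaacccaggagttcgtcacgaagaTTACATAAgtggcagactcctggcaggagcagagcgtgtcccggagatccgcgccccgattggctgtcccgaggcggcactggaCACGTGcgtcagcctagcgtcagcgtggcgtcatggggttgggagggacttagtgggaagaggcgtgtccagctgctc

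Arntl, the gene of the activator BMAL1, had the largest log2 fold change in size of the 29 genes. It lies on chromosome 7 at 113178471 to 113314126 and was at 19.1, 29.6 and 28.0 FPKM at 4 am in replicates 1, 3 and 4, the order used throughout, and at 1.01, 1.52 and 1.55 FPKM at 4 pm. The lowest 4 am library was far above the highest 4 pm library. The means were 25.6 ± 5.66 and 1.36 ± 0.299 FPKM (SD, n = 3), an 18.8-fold ratio, with a log2 fold change of 3.48 ± 0.25 (SE; limma adjusted p = 1.73e-10).

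The partners of BMAL1 did not pass without the block. Clock was at 20.4, 19.0 and 19.6 FPKM at 4 am and at 13.8, 12.5 and 12.3 FPKM at 4 pm. The groups did not overlap, and the log2 fold change was 0.58 ± 0.16 (limma adjusted p = 0.197, and 0.0112 with the replicate block). Npas2 was at 2.19, 2.83 and 2.30 FPKM against 0.799, 0.950 and 1.70 FPKM, again without overlap, with a log2 fold change of 0.70 ± 0.17 (limma adjusted p = 0.0725, and 0.0867 with the block). Without 4 pm replicate 4, the highest of that group, the limma adjusted p of Npas2 was 0.0161. That was the lowest over its 19 alternative settings of the fit. Npas2 passed in 4 of them, and the highest limma adjusted p was 0.936. Rora, a ROR gene, had overlapping groups, 13.9 to 20.3 and 14.4 to 21.7 FPKM, and a log2 fold change of -0.10 ± 0.18. Rorb was below the filter of a mean of 1 FPKM, at 0 to 0.253 FPKM in the 6 libraries.

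Of the repressors of the clock, 5 of 10 tested genes passed, all lower at 4 am, and all 10 had an unadjusted p under 0.05. Over all tested genes 0.274% passed and 5.75% had an unadjusted p under 0.05. These shares are to be set beside each list count given below. The Per genes encode the PERIOD proteins of the negative limb. Per3 was at 3.24, 2.29 and 1.60 FPKM at 4 am and at 12.6, 8.39 and 11.1 FPKM at 4 pm, a log2 fold change of -1.81 ± 0.20 (limma adjusted p = 1.1e-06). Per2 was at 2.45, 1.27 and 1.57 FPKM against 6.57, 6.24 and 6.15 FPKM, a log2 fold change of -1.43 ± 0.16 (limma adjusted p = 1.1e-06). In both genes replicate 1 was the highest library at each time, and the groups stayed well apart. Per1 varied more at 4 am, at 4.68, 0.761 and 3.02 FPKM, and was at 9.58, 7.67 and 8.54 FPKM at 4 pm. Its log2 fold change was -1.48 ± 0.30 (limma adjusted p = 0.0166), and it did not pass without 4 am replicate 3 (adjusted p = 0.221), 4 pm replicate 1 (0.115) or 4 pm replicate 4 (0.0715).

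Nr1d2, which encodes REV-ERB beta, was at 8.05, 6.10 and 5.46 FPKM at 4 am and at 28.6, 19.1 and 21.1 FPKM at 4 pm. The highest 4 am value was under every 4 pm value (log2 fold change -1.66 ± 0.27, limma adjusted p = 0.00105). Its paralog Nr1d1 (REV-ERB alpha) was at 2.77, 3.08 and 4.02 FPKM against 8.47, 5.92 and 5.85 FPKM. The groups did not overlap, and the log2 fold change of -0.85 ± 0.22 passed only with the block (limma adjusted p = 0.15 without and 0.0442 with it). Nr1d1 overlaps Thra in the annotation, and no source used here says whether counting used strand. Gm129, whose protein represses CLOCK and BMAL1 and whose promoter holds the 3 E-boxes shown above, was at 2.76, 1.85 and 2.68 FPKM at 4 am and at 9.58, 9.87 and 9.23 FPKM at 4 pm. The 4 pm libraries were within 1 FPKM of each other (log2 fold change -1.63 ± 0.26, limma adjusted p = 0.000498).

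The cryptochromes, partners of the PER proteins, differed in sign. Cry1 was at 13.1, 7.97 and 8.34 FPKM at 4 am and at 6.01, 4.26 and 5.67 FPKM at 4 pm, so it was the only one of the 10 tested repressors with a positive log2 fold change, 0.75 ± 0.18. It passed with the replicate block (adjusted p = 0.00331) and not without it (limma adjusted p = 0.0642). Cry2 overlapped between the times, at 4.86 to 7.14 and 7.01 to 8.71 FPKM, with a log2 fold change of -0.43 ± 0.20 (limma adjusted p = 0.839). Bhlhe40 and Bhlhe41, which encode the E-box repressors DEC1 and DEC2, had log2 fold changes of -0.79 ± 0.23 and -0.63 ± 0.20 and did not pass (limma adjusted p = 0.211 and 0.355). In each of these DEC genes the 3 values of 4 am lay below the 3 of 4 pm, at most 3.72 against at least 5.31 FPKM for Bhlhe40 and at most 2.15 against at least 2.60 FPKM for Bhlhe41.

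Both tested PAR bZIP genes were lower at 4 am. Dbp was at 4.18, 2.50 and 1.96 FPKM at 4 am and at 26.3, 30.9 and 22.2 FPKM at 4 pm. Its means were 2.88 ± 1.15 and 26.5 ± 4.38 FPKM (SD, n = 3), a 9.19-fold ratio and the lowest log2 fold change among the 29 genes, -2.85 ± 0.26 (limma adjusted p = 3.43e-08). Tef, whose promoter window at the first of its starts is shown above, was at 7.34, 4.48 and 4.88 FPKM against 14.6, 9.92 and 11.5 FPKM. Its groups did not overlap (log2 fold change -1.0 ± 0.20, limma adjusted p = 0.0138), but it did not pass without 4 pm replicate 1, 4 am replicate 3, 4 am replicate 4 or 4 pm replicate 4 (adjusted p = 0.0505 to 0.141). The last PAR bZIP gene, Hlf, was below the filter, at 0.138 to 0.187 FPKM at 4 am and 0.367 to 1.41 FPKM at 4 pm. Nfil3, a repressor that competes for D-boxes, was also below the filter and lay the other way, at 0.340 to 1.08 against 0.195 to 0.380 FPKM, with groups that overlapped.

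The called genes were placed among the 6 times in cK15 hearts. They were chosen for a difference between the means of 4 am and 4 pm, so extremes at or near these times follow in large part from that choice, and the counts are a description. Of the 18 genes lower at 4 am, 15 had their highest mean at 4 pm and 3 at 8 pm, while 13 had their lowest mean at 4 am, 3 at 8 am and 2 at 12 am. Of the 11 genes higher at 4 am, 5 had their highest mean at 4 am, 5 at 8 am and 1 at 12 am, and the lowest mean was at 4 pm in 7 and at 8 pm in 4. Arntl had means of 13.8, 25.6, 24.2, 4.67, 1.36 and 1.59 FPKM over the 6 times, from 12 am on. Per2 was lowest at 8 am, at 0.814 FPKM, and highest at 8 pm, at 8.57 FPKM. The 8 tested clock genes that missed the threshold had their highest means at other times than 4 am and 4 pm. Nr1d1, Bhlhe40 and Bhlhe41 were highest at 12 pm, Clock and Npas2 at 8 am, Cry1 and Cry2 at 12 am and Rora at 8 pm. The lowest means of Nr1d1 and Bhlhe41 were at 4 am. These positions of highest and lowest means were read from 3 libraries per time and were not tested.

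**Figure D2:**
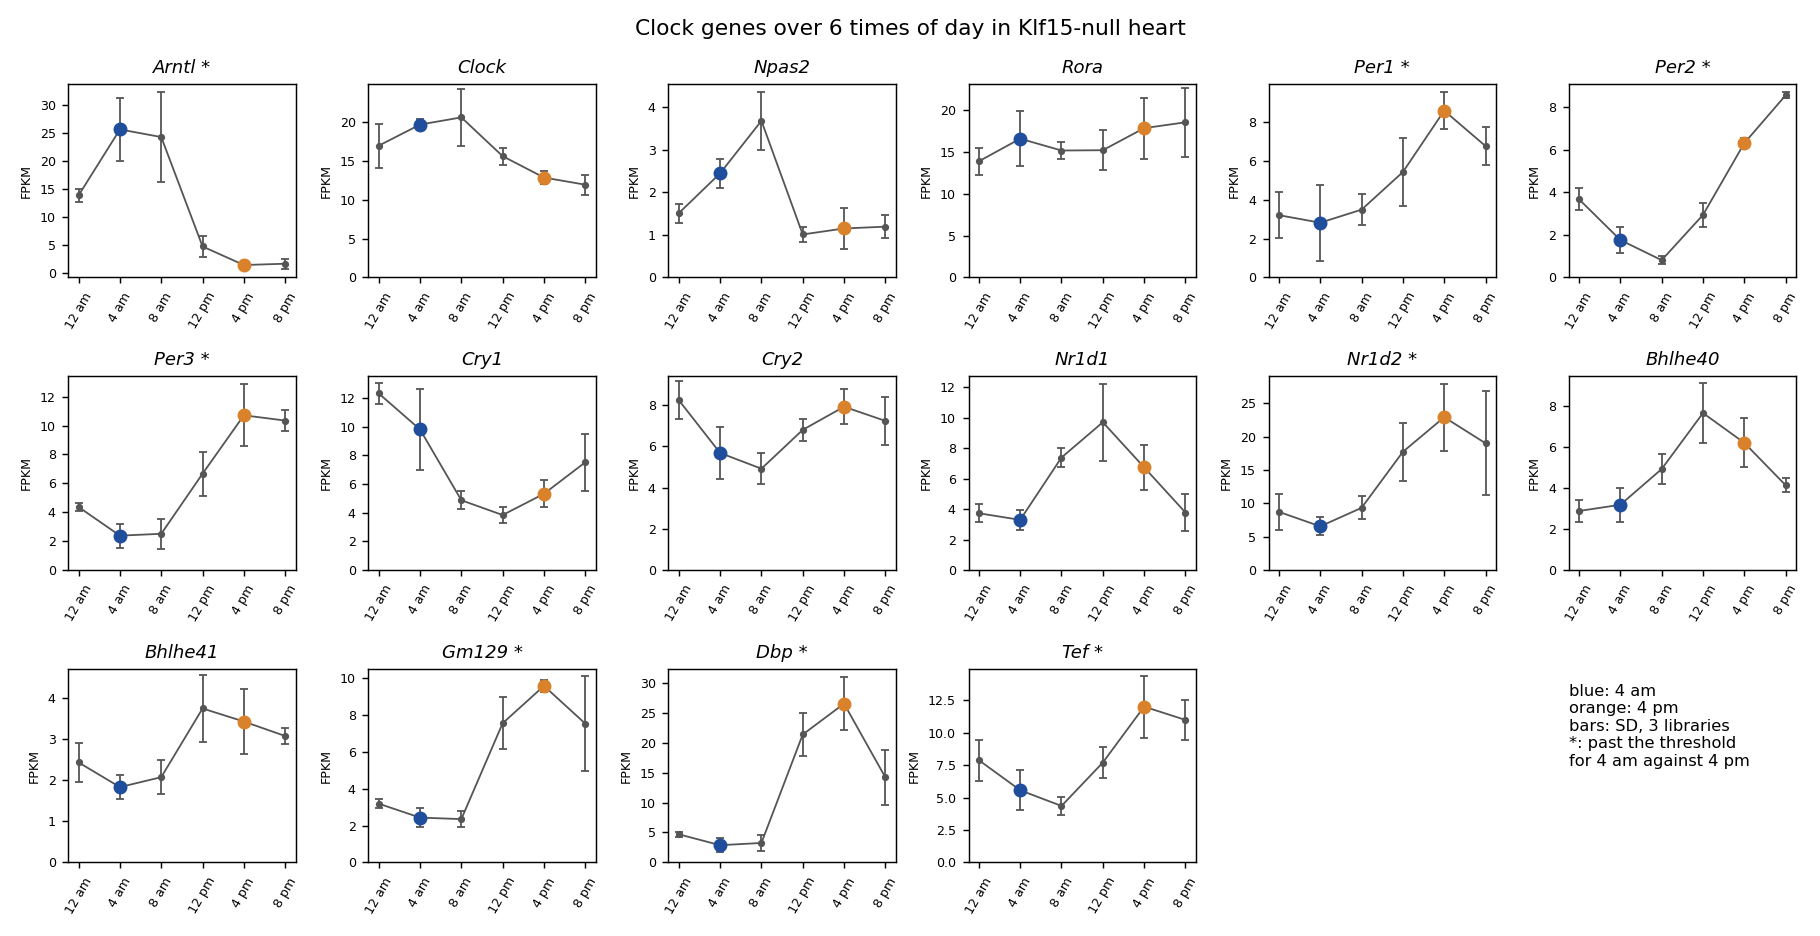
Mean FPKM of 16 clock genes at 6 times of day in cK15 hearts, with bars for the SD of 3 libraries; blue points are 4 am, orange points are 4 pm, and an asterisk marks the 8 of them past the threshold for 4 am against 4 pm. Arntl was at 25.6 FPKM at 4 am and 1.36 FPKM at 4 pm, and Dbp at 2.88 and 26.5 FPKM.

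Beyond the core loop, 5 of 15 tested genes on a list of heart and tissue clock outputs passed, 4 lower and 1 higher at 4 am. This list, like the others, was chosen with earlier results of these data known. Sphk2, which encodes a sphingosine kinase, was at 6.06, 4.41 and 3.47 FPKM at 4 am and at 44.2, 31.3 and 31.7 FPKM at 4 pm, a 7.69-fold ratio of means (log2 fold change -2.71 ± 0.26, limma adjusted p = 7.34e-08). Sphk2 (chromosome 7, 45709463 to 45718002) overlaps the end of Dbp (45705100 to 45710203), and reads from the shared stretch cannot be assigned to either gene unless counting used strand. Tcap encodes telethonin, a small protein of the sarcomere's Z-disc, and had the highest mean at 4 pm of the 18 genes lower at 4 am. It was at 82.9, 133 and 78.4 FPKM at 4 am and at 286, 363 and 240 FPKM at 4 pm. Replicate 3 was its highest library at both times (log2 fold change -1.60 ± 0.24, limma adjusted p = 0.000259).

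Tspan4, a tetraspanin of cell membranes, was at 21.0, 13.7 and 16.7 FPKM at 4 am and at 57.7, 44.7 and 37.4 FPKM at 4 pm (log2 fold change -1.39 ± 0.21, limma adjusted p = 0.000259). Its annotated span overlaps Chid1. Coq10b, which encodes a coenzyme Q binding protein of mitochondria and whose promoter with a D-box and an E-box is shown above, was at 18.8, 11.6 and 9.09 FPKM against 46.6, 33.0 and 24.1 FPKM. In both genes every 4 am library was below every 4 pm library. The log2 fold change of Coq10b was -1.34 ± 0.28 (limma adjusted p = 0.0189), and it did not pass without 4 pm replicate 1, 4 am replicate 3, 4 pm replicate 3 or 4 am replicate 4 (adjusted p = 0.0821 to 0.257). Slc41a3, a magnesium transporter gene, was at 34.2, 39.3 and 43.3 FPKM at 4 am and at 18.4, 21.1 and 15.5 FPKM at 4 pm, the only one of these 5 that was higher at 4 am (log2 fold change 1.05 ± 0.16, limma adjusted p = 0.000311).

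Usp2, a deubiquitinase that acts on clock proteins, was the 1 called gene of 9 tested kinases, ligases and deubiquitinases of the clock. It was at 19.1, 14.6 and 12.7 FPKM at 4 am and at 35, 26.7 and 30.3 FPKM at 4 pm, without overlap (log2 fold change -0.96 ± 0.20, limma adjusted p = 0.0184). It did not pass without 4 pm replicate 1, 4 am replicate 3, 4 am replicate 4 or 4 pm replicate 4 (adjusted p = 0.0799 to 0.230). The other 8 had log2 fold changes between -0.22 and 0.16 (Csnk2a1, a casein kinase subunit).

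The remaining called genes that were lower at 4 am came from no common list. Nr4a1, an immediate early nuclear receptor, was listed at 0 in replicate 1 and was at 1.64 and 1.14 FPKM in replicates 3 and 4 at 4 am, against 5.39, 3.60 and 3.28 FPKM at 4 pm. Its log2 fold change was -1.49 ± 0.29 (limma adjusted p = 0.00921), and it did not pass without 4 am replicate 1 (adjusted p = 0.126) or 4 pm replicate 1 (0.111). It was the 1 called gene of 8 tested immediate early genes, and without replicate 1 at both times, with the block, it did not pass either. Gstt2, a glutathione S-transferase gene, was at 1.74, 2.51 and 3.84 FPKM at 4 am and at 6.25, 9.79 and 6.07 FPKM at 4 pm (log2 fold change -1.19 ± 0.25, limma adjusted p = 0.0178). Its call was lost without 4 am replicate 1, 4 am replicate 3 or 4 pm replicate 3 (adjusted p = 0.107 to 0.216). Mthfd1l, a mitochondrial enzyme gene of one-carbon metabolism, was at 0.982, 0.548 and 0.648 FPKM against 3.20, 2.04 and 3.21 FPKM (log2 fold change -1.14 ± 0.16, limma adjusted p = 9.73e-05). This call held without each single library.

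Gpcpd1, which encodes a glycerophosphocholine phosphodiesterase, was at 167, 122 and 103 FPKM at 4 am and at 250, 245 and 212 FPKM at 4 pm (log2 fold change -0.87 ± 0.18, limma adjusted p = 0.0163). It did not pass without 4 pm replicate 1, 4 am replicate 3, 4 pm replicate 3 or 4 am replicate 4 (adjusted p = 0.0876 to 0.232). Art1, an ADP-ribosyltransferase gene of muscle, had the smallest change of the 29, from 60.4 ± 1.96 FPKM at 4 pm to 40.8 ± 3.98 FPKM at 4 am (SD, n = 3; log2 fold change -0.56 ± 0.12, limma adjusted p = 0.0189). Art1 overlaps Nup98 and Chrna10, and its call was lost in each leave-out except that of 4 am replicate 3 (adjusted p = 0.0646 to 0.150). The last of the 18, outside the rule for named genes and named after its values were seen, was the non-coding gene 4930506C21Rik, at 5.05 ± 0.569 against 11.2 ± 1.78 FPKM (SD, n = 3). It overlaps Mpc1 and Sft2d1 and did not pass without 4 pm replicate 1 (adjusted p = 0.0988) or 4 am replicate 3 (0.0658).

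Of the other genes higher at 4 am, 2 were extracellular matrix genes. Col5a3, a chain of type V collagen, was at 8.85, 11.8 and 11.8 FPKM at 4 am and at 3.42, 3.28 and 3.88 FPKM at 4 pm, a 3.06-fold ratio of means (log2 fold change 1.37 ± 0.15, limma adjusted p = 1.19e-06). Spon2, which encodes a secreted matrix protein, was at 1.14, 2.56 and 3.03 FPKM against 0.462, 0.502 and 0.244 FPKM. Its 4 am libraries spread widely but stood above those of 4 pm (log2 fold change 1.16 ± 0.22, limma adjusted p = 0.00773), and the call was lost without 4 am replicate 3, 4 am replicate 4 or 4 pm replicate 4 (adjusted p = 0.0669 to 0.125). These were the 2 called genes of 21 tested matrix genes, whose median log2 fold change was -0.07. Adam19, a membrane metalloproteinase gene, was at 10.9, 8.77 and 8.97 FPKM at 4 am and at 4.38, 3.07 and 5.89 FPKM at 4 pm (log2 fold change 0.98 ± 0.19, limma adjusted p = 0.0097). It did not pass without 4 am replicate 1 (adjusted p = 0.0889) or 4 pm replicate 3 (0.149).

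Rcan1, an inhibitor of the phosphatase calcineurin and itself a readout of calcineurin activity, was at 25, 19.2 and 16.3 FPKM at 4 am and at 8.44, 9.74 and 7.76 FPKM at 4 pm (log2 fold change 1.12 ± 0.18, limma adjusted p = 0.000498). It was the 1 called gene of 12 tested genes of hypertrophy and the fetal programme. Nppb, the gene of the natriuretic peptide BNP, had a log2 fold change of the same size, 1.12 ± 0.32, at 574, 428 and 472 FPKM against 234, 161 and 299 FPKM, and did not pass (limma adjusted p = 0.234). Its groups did not overlap, and its libraries spread more than those of Rcan1. Ankrd23, an ankyrin repeat protein of the sarcomere's titin complex, was at 245, 306 and 241 FPKM at 4 am and at 169, 170 and 147 FPKM at 4 pm (log2 fold change 0.69 ± 0.14, limma adjusted p = 0.0164). Its call was lost without 4 pm replicate 1, 4 am replicate 3 or 4 pm replicate 4 (adjusted p = 0.0501 to 0.182).

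Sri encodes sorcin, a calcium-binding protein that acts on the ryanodine receptor, and was at 40.6, 42.2 and 33.1 FPKM at 4 am and at 22.5, 26.9 and 23.2 FPKM at 4 pm (log2 fold change 0.65 ± 0.13, limma adjusted p = 0.0183). The call was lost without 4 am replicate 1, 4 pm replicate 1, 4 am replicate 3 or 4 pm replicate 4 (adjusted p = 0.107 to 0.159). Msantd1, a gene of low level, was at 3.73, 2.16 and 2.01 FPKM against 0.486, 0.528 and 0.769 FPKM (log2 fold change 1.16 ± 0.17, limma adjusted p = 0.000236). Gpr137b-ps is annotated as a transcribed pseudogene, so its reads may be shared with Gpr137b, and its level is uncertain. It was at 4.06 ± 0.773 against 2.18 ± 0.359 FPKM (SD, n = 3; limma adjusted p = 0.0189) and did not pass without 4 am replicate 1, 4 am replicate 3, 4 pm replicate 3 or 4 pm replicate 4 (adjusted p = 0.107 to 0.173).

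Of the 29 calls, 15 held when any single library of the 2 groups was left out, and 14 were lost in at least 1 of these leave-outs. Among the 15 were Arntl, Per2, Per3, Nr1d2, Gm129, Dbp, Sphk2, Tcap, Tspan4, Slc41a3, Col5a3, Rcan1, Msantd1 and Mthfd1l. None of the 29 changed sign under any of the 20 alternatives in which it was tested.

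No member passed in 17 of 26 gene lists, which held 324 tested entries. Of these entries 23 (7.1%) had an unadjusted p under 0.05, against 5.75% of all tested genes. The medians of these lists lay between -0.16 and 0.10 on the log2 scale, beside 0.01 over all genes. Among 30 tested genes of fatty acid uptake and oxidation the log2 fold changes ran from -0.72 to 0.22, and 2 had an unadjusted p under 0.05. The lowest was Ucp3, an uncoupling protein gene of muscle mitochondria, at 3.82, 3.32 and 3.76 FPKM at 4 am and at 6.87, 7.14 and 5.86 FPKM at 4 pm. These groups did not overlap, and Ucp3 did not pass (log2 fold change -0.72 ± 0.31, limma adjusted p = 0.768).

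None of 23 tested genes of branched-chain amino acid catabolism, a pathway KLF15 is known to regulate, had an unadjusted p under 0.05, and their log2 fold changes ran from -0.20 (Dbt, a subunit of the branched-chain ketoacid dehydrogenase) to 0.22 (Mut, a mitochondrial mutase). Bcat2, the mitochondrial aminotransferase that opens the pathway, was at 30.5, 30.9 and 31.3 FPKM at 4 am and at 28.8, 36.3 and 34.3 FPKM at 4 pm, with overlapping groups. The 25 tested genes of glucose uptake and glycolysis also had no unadjusted p under 0.05, with values from -0.43 for the glucose transporter gene Slc2a1 to 0.23 for Pfkfb2. All 19 tested genes of oxidative phosphorylation had log2 fold changes between 0.00 and 0.14, none with an unadjusted p under 0.05. Pdk4, an inhibitor of glucose oxidation, was at 23.3, 49.7 and 16.6 FPKM at 4 am and at 21.1, 36.6 and 24.6 FPKM at 4 pm. Its libraries spread widely at 4 am, and the log2 fold change was 0.01 ± 0.29.

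In other lists a few genes had separate groups without passing. Separate groups were also seen in 8.35% of all tested genes. Mt2, a metallothionein gene induced by glucocorticoids and metals, was at 25.3, 14.5 and 9.29 FPKM at 4 am and at 54.7, 49.6 and 45 FPKM at 4 pm. Its log2 fold change of -1.65 ± 0.46 was larger in size than that of most called genes, and its limma adjusted p was 0.204. Per1, described above, was the 1 called gene of the 18 tested glucocorticoid-responsive genes, whose median was -0.02. Fbxo32, the muscle ubiquitin ligase atrogin-1, was at 17.7, 14 and 15.8 FPKM against 23.3, 22.4 and 20.4 FPKM (log2 fold change -0.46 ± 0.12, limma adjusted p = 0.159). Cirbp, a cold-inducible RNA-binding protein gene, overlapped between the times, at 28.1 to 41.7 and 39.1 to 74.4 FPKM (log2 fold change -0.58 ± 0.19, limma adjusted p = 0.36). Of 20 tested ion channel and calcium handling genes none passed, and Kcnip2, a potassium channel subunit gene under Klf15 control in the mouse heart, had overlapping groups at 47.2 to 61.7 and 53.2 to 62.2 FPKM. None of 8 tested Kruppel-like factor genes had an unadjusted p under 0.05, and their log2 fold changes ran from -0.41 (Klf2) to 0.26 (Klf3).

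**Figure D3:**
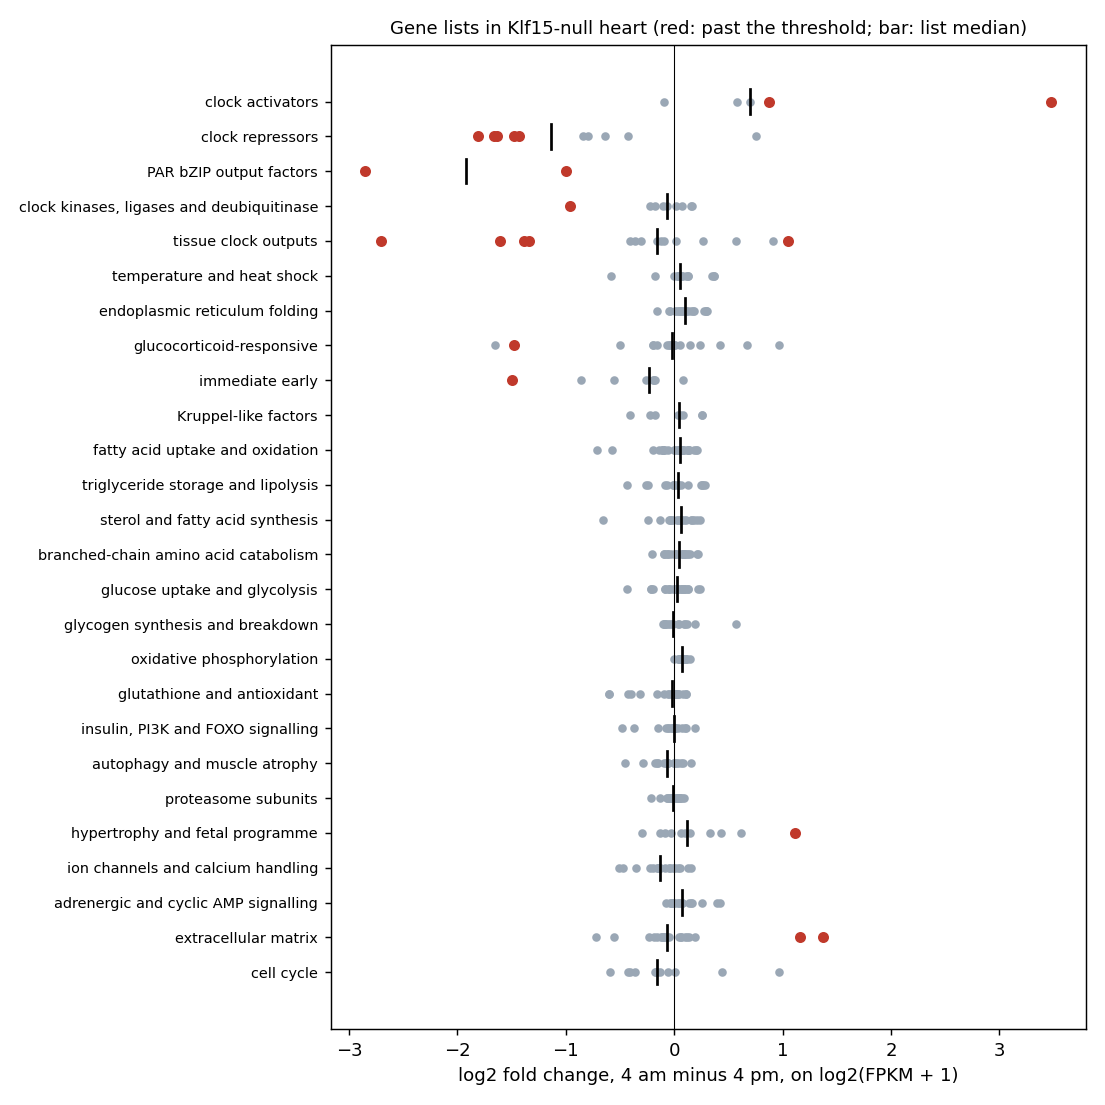
Log2 fold change (4 am minus 4 pm, on log2(FPKM + 1)) of each tested gene in 26 gene lists in cK15 hearts; red points passed the threshold, grey points did not, and black bars are list medians. Of the 29 called genes 19 were on a list, with 9 on the 3 clock lists and 5 on that of tissue outputs. The lists were chosen with earlier results of these data known, so these counts are a description. The 19 genes of oxidative phosphorylation all lie between 0.00 and 0.14.

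With the replicate number as a block 24 further genes passed. They included the clock genes Clock, Cry1 and Nr1d1 given above, the endothelial receptor gene Kdr, the elastin gene Eln and Timp3, an inhibitor of matrix metalloproteinases; Eln, Ypel2 and Hdac4 were chosen after their values were seen. Kdr (VEGF receptor) was at 72.6, 69.0 and 71.5 FPKM at 4 am and at 51.0, 47.9 and 53.7 FPKM at 4 pm, with a limma adjusted p of 0.0576 without the block. Eln was at 11.8, 8.80 and 9.40 FPKM at 4 am and at 4.80, 3.45 and 4.96 FPKM at 4 pm. Ypel2, a gene of the yippee-like family, was at 3.54, 2.72 and 2.44 FPKM against 1.29, 1.39 and 1.12 FPKM. All 3 were higher in every 4 am library than in any 4 pm library. Timp3 was lower at 4 am, at 13.8, 7.30 and 8.70 FPKM against 20.1, 14 and 15.9 FPKM, as was Hdac4, a class II histone deacetylase gene, at 10.7, 8.42 and 11.1 FPKM against 14.1, 13.0 and 17.0 FPKM. Without the 12 libraries that stand apart, replicate 1 at both times among them, 28 genes passed, 20 of them among the 29. The 9 that did not were Tcap (limma adjusted p = 0.0572), Nr4a1, Gstt2, Art1, Adam19, Ankrd23, Sri, Gpr137b-ps and 4930506C21Rik. Without cK15 replicate 1 at both times, and with the block, 37 genes passed, 23 of them among the 29. The 6 that did not were Nr4a1, Adam19, Sri, Art1, Gpr137b-ps and 4930506C21Rik.

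Markers of the cell types in the apex were compared between the times. The summed FPKM of the 10 cardiomyocyte markers ranged from 61965 to 122916 at 4 am and from 65258 to 108477 at 4 pm. The sums of the 8 fibroblast markers, 1355 to 1402 and 1261 to 1419 FPKM, and of the 8 endothelial markers, 393 to 443 and 375 to 427 FPKM, overlapped as well. The same held for the other 11 marker lists with genes in the table, and no marker passed without the block. Kdr, an endothelial marker, passed with it. The atrial markers Sln and Bmp10, the lymphocyte markers Cd3e and Nkg7 and the adipocyte markers Adipoq, Plin1, Lep and Ucp1 were at 0 in all 6 libraries.

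The same contrast was taken in control hearts from the same fit. There 22 genes passed (0.208%), 8 higher (0.0755%) and 14 lower (0.132%) at 4 am, and 12 genes passed in both genotypes, all in the same direction. These were 41.4% of the cK15 calls and 54.5% of the control calls. All 29 cK15 calls had the same sign in control hearts, as did 59.1% of all tested genes, and 23 of the 29 had an unadjusted p under 0.05 there, against 5.08% of all tested genes. Dbp had log2 fold changes of -2.85 ± 0.26 in cK15 and -2.92 ± 0.26 in control hearts, and Sphk2 had -2.71 ± 0.26 and -2.83 ± 0.26. For Arntl they were 3.48 ± 0.25 and 2.64 ± 0.25, from 18.8 ± 0.374 and 2.19 ± 0.179 FPKM in control hearts (SD, n = 3). Clock genes also made up part of the 10 calls found in control hearts but not in cK15 hearts: Cry1, Npas2, Nr1d1 and Bhlhe40, with log2 fold changes of 1.18, 0.90, -1.23 and -1.35, against 0.75, 0.70, -0.85 and -0.79 in cK15 hearts.

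**Figure D4:**
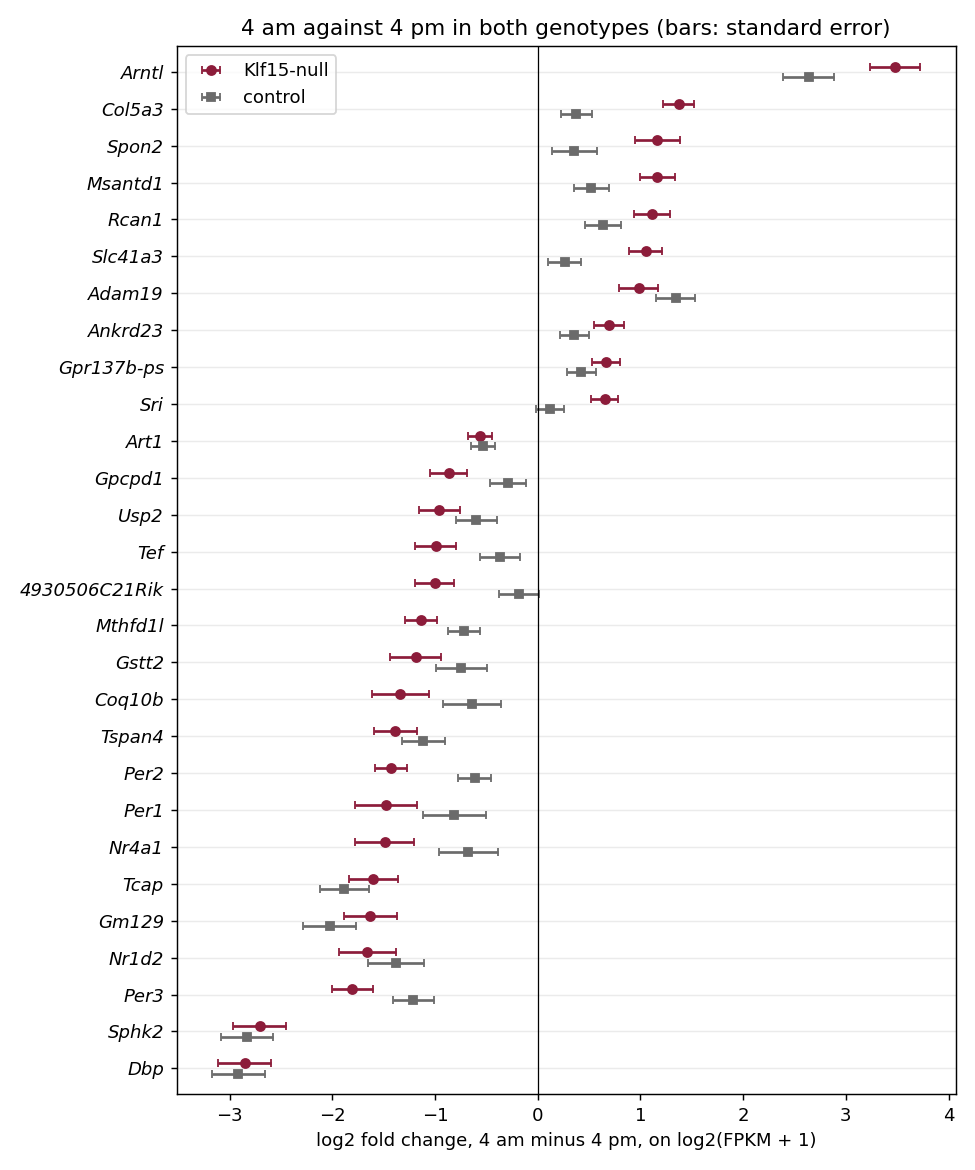
Log2 fold change (4 am minus 4 pm, on log2(FPKM + 1)) with its standard error for 28 of the 29 genes called in cK15 hearts, in cK15 (red circles) and control hearts (grey squares). All 28 pairs of points lie on the same side of 0, and no difference between the genotypes passed the threshold.

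A call in only 1 genotype does not show a difference between them, so the difference of the changes was tested. No gene passed (0 of 10599, limma), with or without the replicate block, and 231 genes (2.18%) had an unadjusted p under 0.05 without it, against 370 (3.49%) with it. Of the 29 genes called in cK15 hearts 11 had an unadjusted p under 0.05, and 23 of the 29 had the larger change in cK15 hearts. Both counts are raised by the choice of the genes for a large change in cK15 hearts and are no evidence of a difference. Of the 22 genes called in control hearts, 16 had the larger change there. The median 95% interval of a cK15 log2 fold change reached 0.37 to each side. Intervals of the genotype difference were wider. For Per2 the SE of the difference was 0.22, against 0.16 for the change in cK15 hearts alone.

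The smallest p of the difference was that of Col5a3. In control hearts it was at 6.64, 8.66 and 6.94 FPKM at 4 am and at 5.42, 4.62 and 6.41 FPKM at 4 pm, so the groups lay closer together than in cK15 hearts. The change was larger in cK15 hearts by 1.00 ± 0.21 on the log2 scale (95% interval 0.56 to 1.44, limma adjusted p = 0.579). The change of Per2 in cK15 hearts minus that in control hearts was -0.81 ± 0.22 on that scale (95% interval -1.26 to -0.36, limma adjusted p = 1). It was at 2.09 ± 0.332 FPKM at 4 am and at 3.73 ± 0.398 FPKM at 4 pm in control hearts (SD, n = 3), against 1.76 ± 0.610 and 6.32 ± 0.226 FPKM in cK15 hearts. The widest gap between the genotypes in Per2 was thus at 4 pm.

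Among the other genes with the smallest p of the difference, several had opposite signs in the genotypes, and none passed. Rftn1, which encodes a lipid raft protein, was at 24.7 ± 0.255 and 19.7 ± 3 FPKM at 4 am and 4 pm in cK15 hearts and at 16.8 ± 0.936 and 21.5 ± 2.72 FPKM in control hearts (SD, n = 3; limma adjusted p of the difference = 0.579). Tnnt3, the troponin T gene of fast skeletal muscle, was at 0.216 to 0.455 FPKM at 4 am and 0.697 to 2.50 FPKM at 4 pm in cK15 hearts. In control hearts it was at 1.04 to 2.23 FPKM at 4 am, and at 4 pm it was listed at 0 in replicate 3 and was at 0.692 and 1.12 FPKM in replicates 2 and 4. The summed skeletal muscle markers, of which Tnnt3 is one, were at 1.49 to 7.58 FPKM at 4 am and 3.14 to 8.97 FPKM at 4 pm in cK15 hearts, with Pvalb at 0 in all 6 libraries. Their part in the Tnnt3 values was not tested. Col3a1, a fibrillar collagen gene, was in cK15 hearts at 101 ± 9.32 and 105 ± 11.7 FPKM at 4 am and 4 pm, and in control hearts at 118 ± 12.4 and 197 ± 17.7 FPKM (SD, n = 3; limma adjusted p of the difference = 1). For Slc41a3, Pafah1b3 and Ttc26 the change in cK15 hearts minus that in control hearts was 0.79, 1.28 and 0.71, and for AI507597, Sema6b and Aldh1a1 it was -1.26, -0.86 and -0.79.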

How the data were processed

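RNA of the heart apex was extracted with Trizol and miRNeasy columns, depleted of ribosomal RNA and made into stranded TruSeq libraries, per the labels' protocols. The authors deposited FPKM per gene symbol and library in a table for each genotype, and GSNAP, HTSeq and the build mm10 were used per the submitters' processing notes. No source used here gives the annotation, the program that computed FPKM or the use of strand. FPKM gives no depth, so no counting interval is given, and a few abundant genes can lower all other values. The table held 23352 entries, of which 27 symbols were turned into dates and 2 occurred more than once; these are not named.

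Log2(FPKM + 1) was fitted with limma 3.58.1 (R 4.3.3). Tested were 10599 genes averaging at least 1 FPKM over 36 libraries. The model had 12 group means (24 residual degrees of freedom), with moderated variance that follows the mean and is robust. Benjamini-Hochberg adjustment covered all tested genes, with a threshold of 0.05. The contrasts were 4 am minus 4 pm in cK15, the same in control, and their difference. Fold changes on this scale understate those of low genes, and ratios of mean FPKM are given beside some. The labels do not tie libraries to separate animals; a p-value here reflects only how these libraries vary, in part perhaps technically.

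Replicate numbers come from the labels. Deviations from the group means correlated at 0.45, 0.31 and 0.26 between 4 am and 4 pm libraries of the same number in cK15. Between other numbers the correlations were -0.30 to 0.01. Deviations within a group sum to 0, so positive values for the same number push the others down. The pair at 0.45 is replicate 1, which stands apart at both times. These correlations therefore cannot show that the numbers pair the libraries. The number was used as a block in an alternative fit, and the blocked value is given where it changes a call. Pairing was checked only between 4 am and 4 pm. At 8 pm replicate 4 of cK15, not replicate 1, stood apart (top 10 share 16.9% against 23.1%). In control it was replicate 4, not replicate 2 (17.7% against 22.8%). The blocked fit includes these 8 pm libraries, where the number does not follow the set that stands apart. The fit without the block was run on simulated data with known changes. Noise was drawn independently for each library, so that run cannot speak to the block or to the libraries that stand apart. The genes and lists were chosen with earlier results of these data known. Named were the 12 highest and 12 lowest called fold changes, all tested clock genes, up to 3 called members of each other list, and up to 6 genes in each direction with the smallest p of the genotype difference; a few genes that the rule names are not reported here; list extremes and other list members were named after their values were seen. Alternatives were the pseudocount, the filter, rescaling, the variance model, the block, a term for the library set that stands apart, fewer libraries in the fit, and each library left out. Promoter windows and gene spans are from RefSeq.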

Additional observations from a re-analysis of the deposited data

How the results depend on the processing

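The count of genes past the threshold in cK15 hearts, 29, stayed within 1.5 times under other pseudocounts, filters, rescalings and variance models (25 to 36). It was 53 with the replicate block as a fixed term, 50 with the replicate block as a random effect, and 78 with a term for the set of 12 libraries that stand apart. It was 17 with only the 18 cK15 libraries in the fit and 10 with only the 6 compared, where fewer libraries estimate the spread. Leaving out 1 library gave 19 (without 4 am replicate 3) to 30. Without replicate 1 at both times, with the replicate block, an alternative added after seeing the data, it was 37. The control count, 22, was 61 with the library-set term, 4 with only the 6 libraries compared, 33 with the replicate block, and 14 (without 4 am replicate 3 or 4 am replicate 4) to 20 without 1 library. No gene passed for the genotype difference under any alternative run. Of the 29 cK15 calls 9 held in each alternative that tested them, 19 for Per2 and 20 for the others. They were Dbp, Sphk2, Per3, Nr1d2, Gm129, Per2, Tspan4, Col5a3 and Arntl. None of the 29 was lost with the fixed replicate block, which only added 24 calls. The log2 fold change of Rora, -0.10, turned to 0.014 without 4 am replicate 1 and to 0.043 without 4 pm replicate 4, and was -0.24 without 4 am replicate 4. Where not stated, the cause was not tested. The unknown depth limits genes of low FPKM, and groups of 3 libraries limit every test.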
